A study of Mus musculus with 34 samples.

Results

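Duplication-deletion mouse embryonic stem cells (ESCs) were set against control ESCs in total RNA sequencing: 3 libraries with the genotype 129Sv df/dp and 3 with 129Sv +/+, chosen by the library titles, 6 of the 28 RNA libraries of the study. The df/dp cells carried a heterozygous duplication and a heterozygous deletion of 7qF3, the part of chromosome 7 that matches human 16p11.2, a region linked to autism. Their number of copies therefore equals that of control cells, with the copies on one chromosome. A further 3 ESC libraries with the deletion alone (129Sv df/+) entered the same fit and are used where they bear on a value. The label for background strain was C57BL/6N in all 9. All cells came from published lines and grew without feeders on gelatine in serum with LIF, the cytokine that holds ESCs undifferentiated. The labels do not say how many lines or clones stand behind a genotype, nor whether replicates were separate cultures, so the tests weigh only how much these libraries vary, which may be technical.

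Depth was 69523477, 45884471 and 22935331 counts in duplication-deletion replicates 1 to 3, and 45009782, 46624598 and 20814862 in control replicates 1 to 3. Deletion replicates 1 to 3 had 35672610, 38022362 and 5578151 counts, so deletion replicate 3 was the shallowest ESC library. Mitochondrial entries took 27.2% to 39.9% of the counts in duplication-deletion libraries and 26.8% to 41.8% in control libraries. Replicate 3 of each genotype was the shallowest, and libraries with the same number resembled each other across genotypes. Each comparison was therefore fitted without and with the replicate number as a block, and fold changes called blocked are from the second fit. Levels are CPM, a gene's counts as a share of its library, scaled by TMM, a method that equalises libraries on their bulk of genes; they are not corrected for gene length.

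Genomic imprinting marks some genes in the germ line by DNA methylation, so that a cell uses only the copy from the mother or only the copy from the father. In the Kcnq1ot1 domain a long noncoding RNA, Kcnq1ot1, is made from the paternal chromosome and silences neighbours there, among them Cdkn1c, an inhibitor of cyclin-dependent kinases, and Phlda2, which restrains placental growth; these are expressed from the maternal chromosome. In the Snrpn domain, mouse counterpart of the Prader-Willi region, Snurf and Snrpn share a paternal transcript that runs on into Snhg14, a noncoding host of small nucleolar RNAs. A different feature of ESC cultures is the 2-cell-like state, in which a few cells transiently express genes of the 2-cell embryo, with the zinc finger proteins of the Zscan4 family as its usual markers.

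Promoters of 4 called genes are shown because the calls fall into these groups, with that of Zscan4c to show how alike the Zscan4 copies are. They are RefSeq sequences of GRCm38.p6, 250 bases before to 50 after the start, read in the direction of transcription, with CG dinucleotides, the sites of DNA methylation, in capitals. Cdkn1c, D7Ertd715e and Zscan4e are named only.
Kcnq1ot1, chr7:143296498-143296797, minus strand: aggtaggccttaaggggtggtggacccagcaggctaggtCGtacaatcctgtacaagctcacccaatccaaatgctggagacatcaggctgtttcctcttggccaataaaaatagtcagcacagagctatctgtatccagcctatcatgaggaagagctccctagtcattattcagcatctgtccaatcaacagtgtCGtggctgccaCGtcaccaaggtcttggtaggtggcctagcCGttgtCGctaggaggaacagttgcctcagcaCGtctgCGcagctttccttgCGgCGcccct
Snurf, chr7:60005150-60005449, minus strand: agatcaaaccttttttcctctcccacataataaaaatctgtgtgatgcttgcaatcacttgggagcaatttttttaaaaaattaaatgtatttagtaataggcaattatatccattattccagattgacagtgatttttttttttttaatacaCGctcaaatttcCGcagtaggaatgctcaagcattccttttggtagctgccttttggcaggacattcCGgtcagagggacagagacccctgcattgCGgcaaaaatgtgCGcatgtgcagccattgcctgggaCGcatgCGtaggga
Phlda2, chr7:143502475-143502774, minus strand: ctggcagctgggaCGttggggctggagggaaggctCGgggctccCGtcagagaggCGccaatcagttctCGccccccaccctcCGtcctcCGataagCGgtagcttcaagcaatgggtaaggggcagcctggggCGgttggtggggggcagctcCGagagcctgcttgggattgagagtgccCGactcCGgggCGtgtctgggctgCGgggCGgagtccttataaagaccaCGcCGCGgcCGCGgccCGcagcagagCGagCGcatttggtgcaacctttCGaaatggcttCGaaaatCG
Zscan4c, chr7:11005495-11005794, plus strand: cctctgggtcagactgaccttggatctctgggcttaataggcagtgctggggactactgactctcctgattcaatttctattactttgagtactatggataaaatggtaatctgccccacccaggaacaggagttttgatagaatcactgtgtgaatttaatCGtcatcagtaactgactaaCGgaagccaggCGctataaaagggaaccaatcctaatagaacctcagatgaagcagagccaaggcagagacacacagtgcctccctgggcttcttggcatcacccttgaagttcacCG
Zscan4f, chr7:11397665-11397964, plus strand: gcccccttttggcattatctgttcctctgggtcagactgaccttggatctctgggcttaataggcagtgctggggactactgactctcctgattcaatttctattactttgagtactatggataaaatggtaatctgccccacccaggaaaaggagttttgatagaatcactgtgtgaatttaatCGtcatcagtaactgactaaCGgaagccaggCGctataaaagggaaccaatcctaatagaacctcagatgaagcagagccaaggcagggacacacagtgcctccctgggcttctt
The Kcnq1ot1 window held 9 CG dinucleotides, a number reached by 45.8% of 32807 mouse promoter windows. Snurf held 7 (52.1%) and Phlda2 26 (16.9%), while Zscan4c held 4 (68.6%) and Zscan4f 3 (76.7%). The letters TGCCGC, bound by the imprint-protecting protein ZFP57 when methylated, were searched on both strands. They stood once in the Snurf window, on its reverse strand, and in none of the other 4 printed here; 11.6% of all windows held them. Zscan4c and Zscan4f were the same at 275 of 277 positions once shifted by 23 bases.

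Duplication-deletion ESCs differed from control ESCs in a small set of genes, all on chromosome 7 and all outside the 7qF3 interval. The noncoding RNA Kcnq1ot1 rose and its targets Cdkn1c and Phlda2 fell. Snurf and the entry D7Ertd715e of the Snrpn domain fell more steeply. D7Ertd715e shares its gene, Snhg14, with a separate entry whose own blocked log2 fold change was 0.33. Summed over both entries the blocked value was -0.35 and was not called. Zscan4e and Zscan4f rose. These statements rest on the blocked edgeR quasi-likelihood test, in which 7 of 16470 genes passed an adjusted p of 0.05 (0.0425%), 3 higher (0.0182%) and 4 lower (0.0243%). Without the block the edgeR test called 0 genes, with 51 (0.31%) under 0.05 before adjustment; DESeq2 then called 4 and limma-voom 0. With the block DESeq2 called 22 and limma-voom 10, and both held all 7 genes. DESeq2 also called genes of other chromosomes, such as Gm5662 of chromosome 12 with the block and 2310005E10Rik of chromosome 6 without it. Blocked edgeR called Gm5662 once control replicate 1 was left out, and 2310005E10Rik once control replicate 3 was. Fitted on the 6 libraries of these genotypes alone, the block left 0 calls, and without replicate 3 of all genotypes it left 3, Snurf, D7Ertd715e and MMR, the last named after its values were seen.

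Kcnq1ot1, chr7:150399016-150482452 in the deposited mm9 coordinates, had 911, 329 and 337 CPM in duplication-deletion replicates 1 to 3, against 355, 169 and 148 CPM in control replicates 1 to 3. Replicate 1 was the highest library of either genotype, so the groups overlap, but within each number the duplication-deletion library was the higher one. The blocked log2 fold change was 1.17 ± 0.13 (SE; edgeR adjusted p = 0.0102), and without the block 1.23 ± 0.51 (adjusted p = 1). Kcnq1, the gene on the opposite strand, had at most 0.132 CPM in duplication-deletion libraries and 0.781 CPM in control libraries; whether the counting used the strand is not given, so reads of the pair, as those of Snhg14 and Ube3a, cannot be told apart with certainty.

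Cdkn1c, chr7:150644244-150646955, had 10.3, 15.0 and 7.59 CPM in duplication-deletion replicates 1 to 3, against 27.2, 31.5 and 20.1 CPM in control replicates. Every duplication-deletion library lay below every control library, as for 1.69% of all genes. The blocked log2 fold change was -1.29 ± 0.14 (edgeR adjusted p = 0.0102). Phlda2, chr7:150687453-150688429, had 12.4, 17.9 and 7.26 CPM in duplication-deletion cells and 40.3, 37.5 and 18.96 CPM in control cells, again without overlap. Its blocked log2 fold change was -1.38 ± 0.17 (adjusted p = 0.0132). Without duplication-deletion replicate 3 both missed the threshold in edgeR, Cdkn1c with -1.26 and Phlda2 with -1.44 (adjusted p = 0.0557 for each).

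Neighbours in the same domain had other values. Nap1l4, a histone chaperone at its edge, had 84.4, 96.4 and 73.2 CPM in duplication-deletion cells against 80.5, 101 and 75.4 CPM in control cells (blocked log2 fold change -0.02). Cd81, a tetraspanin of the cell surface, had -0.10. Slc22a18, a transporter expressed from the maternal copy, was below 2 CPM in every library and had -2.58 ± 1.14. Of the 10 domain genes tested, 1 was called higher (0.0182% of all genes) and 2 lower (0.0243%) with the block. A lower level with an unadjusted p below 0.05 in edgeR was seen for 3, where 2.02% of all genes had it. The median over the 10 was -0.19 on the log2 scale, against 0.00 over all genes.

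**Figure D1:**
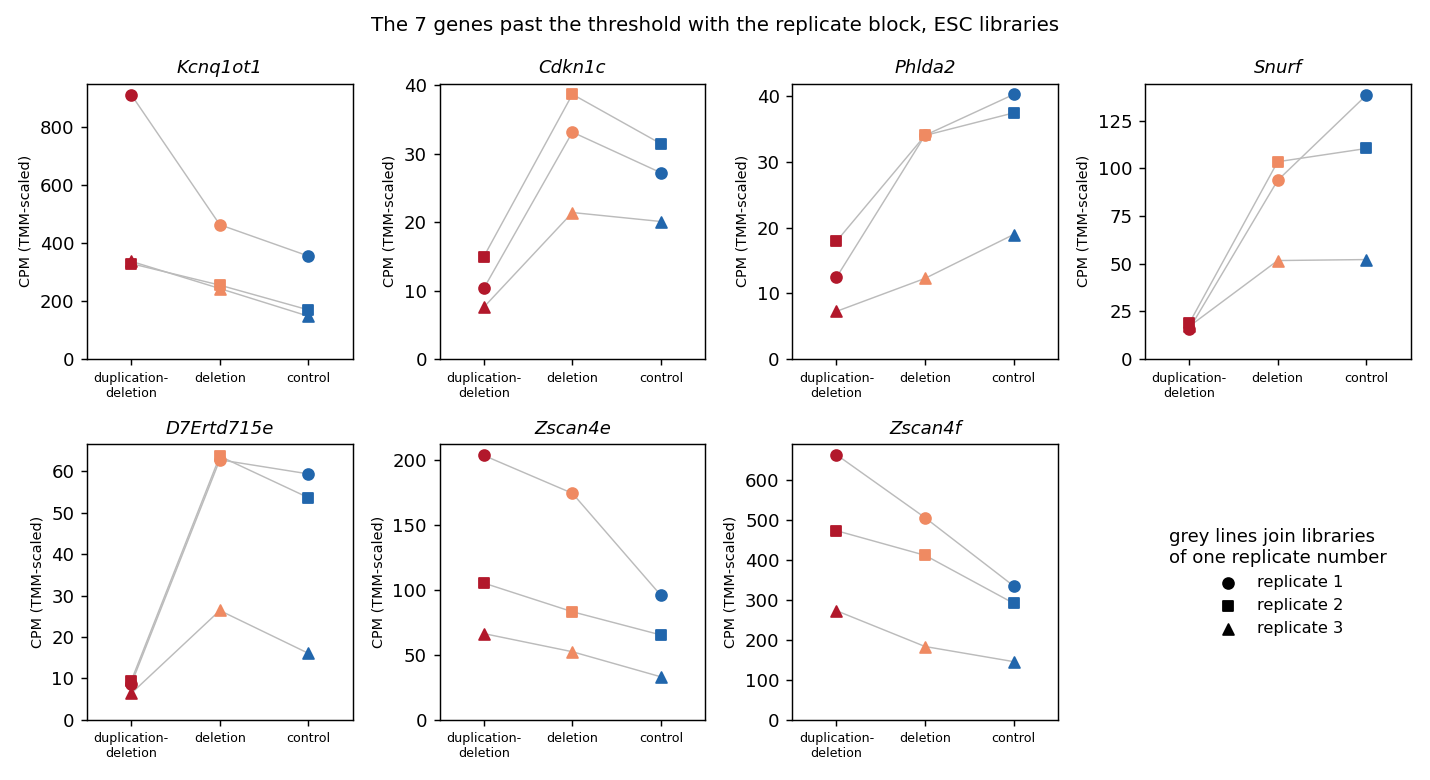
Level (CPM, TMM-scaled, linear axes from 0) of the 7 genes past the threshold with the replicate block in 3 duplication-deletion, 3 deletion and 3 control ESC libraries; symbols give the replicate number and grey lines join libraries of one number. Snurf stood between 15.6 and 18.7 CPM in duplication-deletion libraries, below the lowest control library at 52.1 CPM.

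In the Snrpn domain, Snurf, chr7:67127388-67150042, had 15.6, 18.7 and 17.1 CPM in duplication-deletion replicates 1 to 3, against 138, 110.3 and 52.1 CPM in control replicates. The duplication-deletion values were close to each other and all below the control ones, which spread more widely. The blocked log2 fold change was -2.44 ± 0.27 (edgeR adjusted p = 0.0441), the largest of the 7 in size; the call was lost without duplication-deletion replicate 2 (-2.34, adjusted p = 0.448) or control replicate 2 (-2.45, adjusted p = 0.397). The entry Snrpn, which shares that transcript and encodes a splicing protein, stayed below 1 CPM in all 6 libraries; how reads were divided between the entries was not tested.

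D7Ertd715e, chr7:67082354-67120645, downstream of Snurf on the transcript's path, had 8.66, 9.41 and 6.37 CPM in duplication-deletion cells and 59.4, 53.6 and 16.0 CPM in control cells, with no overlap. The blocked log2 fold change was -2.23 ± 0.24 (edgeR adjusted p = 0.0132). The table of names gives its current gene as Snhg14, which it shares with the entry C230091D08Rik at chr7:66563294-66579519, an entry looked up after the values were seen. C230091D08Rik had 106.8, 65.8 and 22.9 CPM in duplication-deletion cells against 60.3, 63.2 and 21.7 CPM in control cells (blocked 0.33, unadjusted p = 0.0515 in edgeR). Summed over both entries the blocked value was -0.35 and was not called (adjusted p = 0.986); left as deposited, the call was lost without duplication-deletion replicate 2 (-2.11, adjusted p = 0.181) or control replicate 2 (-2.15, adjusted p = 0.117). Of the 2 entries, the one called D7Ertd715e had the lower level. C230091D08Rik starts just past the end of the gene Ube3a, chr7:66484120-66562097, and lies far from D7Ertd715e. Which transcript its reads come from was not tested, so the sum may mix signals.

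The protein genes further along the domain were low in ESCs or near control. Ndn, a growth suppressor of the MAGE family, had 0.711 to 4.16 CPM in duplication-deletion libraries against 2.17 to 4.55 CPM in control libraries (blocked -0.51). Mkrn3, a ubiquitin ligase, had 0.03 and Peg12, a regulator of GSK3, -0.45. Ube3a, a ubiquitin ligase used from the maternal copy in neurons, had 357, 271 and 139.9 CPM in duplication-deletion cells against 221, 291 and 128 CPM in control cells (0.24 ± 0.14, adjusted p = 0.993). Of 9 genes tested in the domain 2 were called lower with the block (0.0243% of all genes) and none higher. Both, Snurf and D7Ertd715e, lie on the path of the same transcript.

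Deletion ESCs lay between the other genotypes or near control for the called imprinted genes. Snurf had 93.6, 103 and 51.6 CPM in deletion replicates 1 to 3, Cdkn1c had 33.2, 38.7 and 21.4 CPM, and D7Ertd715e had 62.8, 63.6 and 26.4 CPM. Phlda2 had 34.1, 34.0 and 12.3 CPM in deletion replicates 1 to 3, each below the control replicate of its number, and deletion replicate 3 lay within the duplication-deletion range. Kcnq1ot1 had 463, 255 and 243 CPM, above control and below duplication-deletion at each number (deletion over control, blocked 0.57, edgeR adjusted p = 0.257). Between duplication-deletion and deletion ESCs 13 genes passed with the block (0.0789%), 10 higher and 3 lower, and 0 without it (164, or 0.996%, were under 0.05 before adjustment). The 3 lower were Cdkn1c (-1.52, edgeR adjusted p = 0.0022), D7Ertd715e (-2.55, 0.00377) and Snurf (-2.20, 0.0493). Phlda2 had -1.07 (adjusted p = 0.0529) and Kcnq1ot1 0.61 (adjusted p = 0.311) against deletion. Comparisons with deletion and with control share the duplication-deletion libraries.

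A further imprinted domain of chromosome 7 is that of Peg3, a paternally expressed zinc finger gene. Peg3 had 68.3, 72.9 and 86.1 CPM in duplication-deletion replicates 1 to 3, against 155, 100.3 and 99.6 CPM in control replicates. The groups did not overlap, though the highest duplication-deletion library was close to the lowest control one. The blocked log2 fold change was -0.64 ± 0.18 (edgeR unadjusted p = 0.00505, adjusted p = 0.993). Usp29, which starts beside Peg3 and encodes a deubiquitinase, had -0.57, and Zim1, a maternally expressed zinc finger gene, 0.40 at about 1 CPM; 0 of 5 domain genes were called.

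Outside chromosome 7, Plagl1, a paternally expressed zinc finger gene of chromosome 10 that regulates other imprinted genes, had 1.87, 0.806 and 1.68 CPM in duplication-deletion cells and 4.67, 3.94 and 3.62 CPM in control cells. All duplication-deletion libraries were below all control ones at this low level (blocked -1.53 ± 0.33, edgeR adjusted p = 0.413). Nespas, the antisense RNA of the Gnas locus, had -0.74, and Peg10, a retrotransposon-derived gene needed in placenta, 0.46; neither passed. The Igf2-H19 and Dlk1-Meg3 domains hold a fetal growth factor and large noncoding RNAs. With the block, 8 of their 8 tested genes were above 0 (50.2% of all genes) with a median of 0.34, and none was called. Across all these domains and the other listed imprinted genes, 26 known for paternal expression had a blocked median of 0.02 and 10 known for maternal expression had 0.08.

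**Figure D2:**
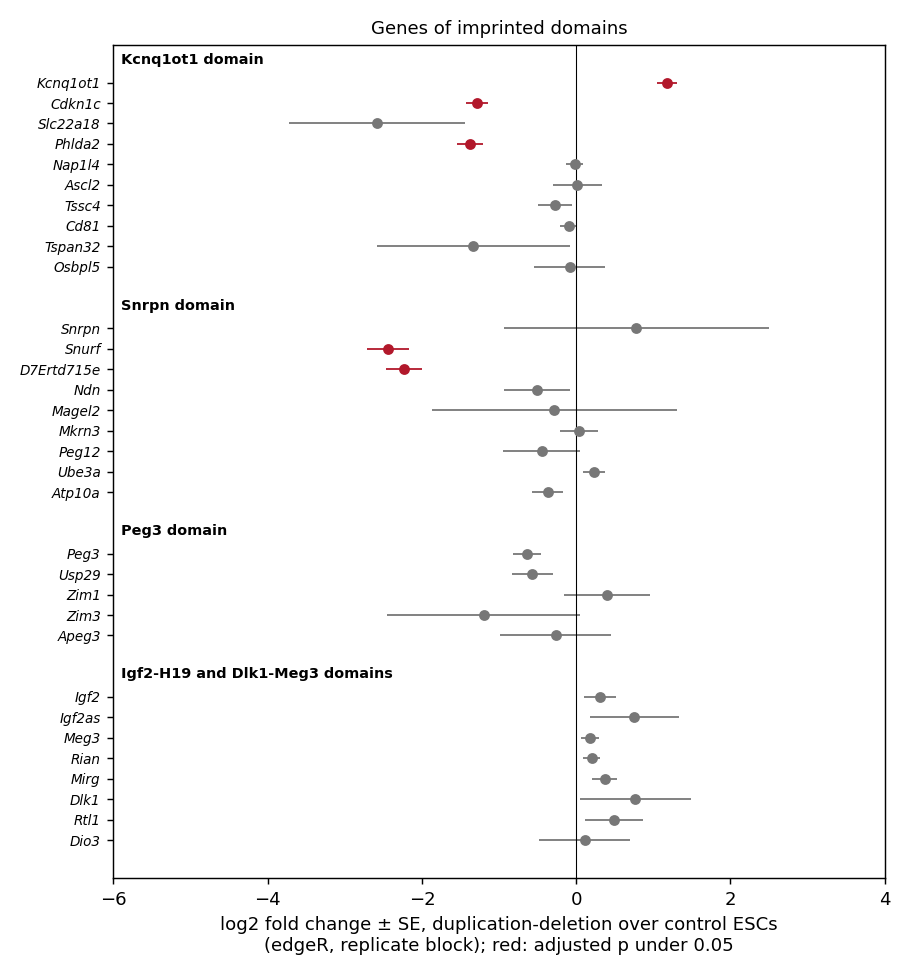
Blocked log2 fold change with SE (horizontal axis) of each tested gene of 4 sets of imprinted domains, duplication-deletion over control ESCs; red points passed an adjusted p of 0.05. The called genes lie at -2.44 to -1.29 and at 1.17, while genes beside them such as Nap1l4 and Ube3a lie near 0.

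Of the 2-cell-like genes, 2 members of the Zscan4 family rose in duplication-deletion ESCs. Zscan4f, chr7:11983264-12104037, had 664, 474 and 273 CPM in duplication-deletion replicates 1 to 3, against 335, 292 and 146 CPM in control replicates. The level differed more between replicate numbers than between genotypes, and within each number the duplication-deletion library was higher. The blocked log2 fold change was 0.87 ± 0.11 (edgeR adjusted p = 0.0181; 0.87 ± 0.47 and adjusted p = 1 without the block). Zscan4e, chr7:11891727-11896031, had 203, 105 and 66.2 CPM in duplication-deletion cells and 95.5, 65.2 and 33.0 CPM in control cells (blocked 0.92 ± 0.12, adjusted p = 0.0181). The Zscan4f call was lost without duplication-deletion replicate 1 (0.84, adjusted p = 0.0711) or 3 (0.81, adjusted p = 0.196). The Zscan4e call was lost without duplication-deletion replicate 1, 2 or 3 (0.90, 0.97 and 0.89; adjusted p = 0.0711, 0.111 and 0.154) or control replicate 3 (0.90, adjusted p = 0.0561).

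Because Zscan4 copies are nearly identical, as the Zscan4c and Zscan4f promoters above show for that part of them, reads cannot be assigned to one copy with certainty. Summed over 5 Zscan4 entries the level was 1489, 1003 and 589 CPM in duplication-deletion replicates 1 to 3, and 773, 638 and 316 CPM in control replicates. Deletion replicates had 1196, 820 and 380 CPM, between the other genotypes at each number. In bulk RNA, more cells in the state and more RNA per such cell cannot be told apart.

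Across the 2-cell-like list, 24 of 24 tested genes had a blocked log2 fold change above 0 (50.2% of all genes), with a median of 0.62. With the block, 10 were higher with an unadjusted p below 0.05 in edgeR (2.28% of all genes, or 4.3% in either direction). The adjusted threshold was passed by 2, both higher (0.0182% of all genes). Libraries did not overlap for 6 genes, all higher (1.23% of all genes). Gm8300, an Eif1a-like gene of the state, had 23.4, 19.7 and 21.9 CPM in duplication-deletion cells and 18.8, 10.0 and 10.5 CPM in control cells (blocked 0.78, adjusted p = 0.715). Gm5662, of the same family, had 82.1, 79.2 and 55.8 CPM in duplication-deletion cells and 62.8, 38.9 and 34.3 CPM in control cells (0.70, adjusted p = 0.237). Gm428 had 0.69, Gm2022 0.57, and BB287469, at 9.83, 15.4 and 6.67 CPM in duplication-deletion cells against 3.60, 0 and 2.38 CPM in control cells, 2.31 ± 1.63. Against deletion ESCs neither Zscan4f (0.39, adjusted p = 0.709) nor Zscan4e (0.30, adjusted p = 0.773) passed.

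**Figure D3:**
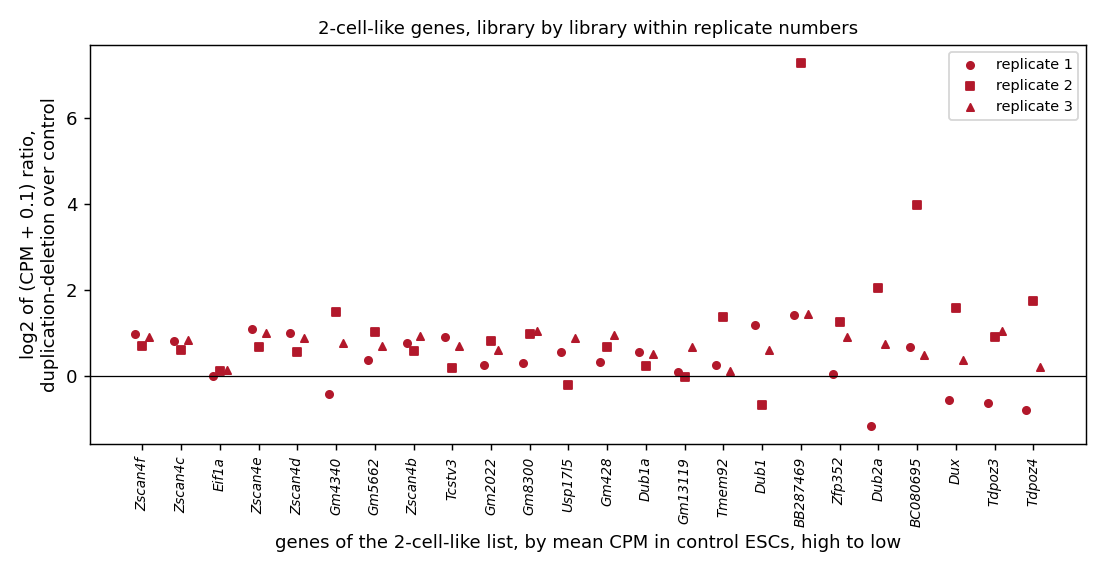
Log2 ratio of duplication-deletion to control CPM (with 0.1 added to both) within each replicate number, for the 24 tested genes of the 2-cell-like list ordered by control level; symbols give the replicate number. The 5 Zscan4 genes have all 3 ratios above 0; ratios of genes near 1 CPM scatter on both sides.

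In the altered region, duplication-deletion and control libraries overlapped. The interval, chr7:133832441-134361959 in mm9, held 29 tested genes of 32 listed, of which 0 were called with or without the block. Their median log2 fold change was -0.04 (blocked -0.04), with 13 above 0 (50.1% of all genes). The median interval gene stood at 85.3%, 85.9% and 117% of its control mean in duplication-deletion replicates 1 to 3, and at 96.2%, 81.1% and 117% in control replicates. Deletion replicates stood at 35.9%, 43.5% and 53.7%, below every library of the other genotypes.

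Aldoa, a glycolytic aldolase and the most abundant interval gene, had 529.9, 742 and 1151 CPM in duplication-deletion replicates 1 to 3, against 659, 839 and 1283 CPM in control replicates. The duplication-deletion library was the lower one at each number, and the blocked log2 fold change was -0.22 ± 0.10 (edgeR unadjusted p = 0.0544, adjusted p = 0.993). Against deletion it was higher by 1.17 (adjusted p = 0.00186). Ppp4c, a phosphatase catalytic subunit, had 33.9, 36.7 and 39.99 CPM in duplication-deletion cells and 42.8, 30.1 and 40.4 CPM in control cells. Mapk3, the kinase ERK1, had -0.34 ± 0.31 and Kctd13, an adaptor of the CUL3 ubiquitin ligase, -0.19 ± 0.36. The lowest interval value with over 1 CPM was AI467606 at -1.004 ± 0.46 (unadjusted p = 0.0522).

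Against deletion ESCs 28 of the 29 interval genes had a log2 fold change above 0, with a median of 1.16, and 9 of them, Aldoa, Kif22, Maz and Taok2 included, were called higher with the block (0.0607% of all genes). Within 2 Mb of the interval, 20 genes on the proximal side had a median of -0.05 in duplication-deletion against control ESCs and 59 on the distal side 0.02, with 0 calls on either side.

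**Figure D4:**
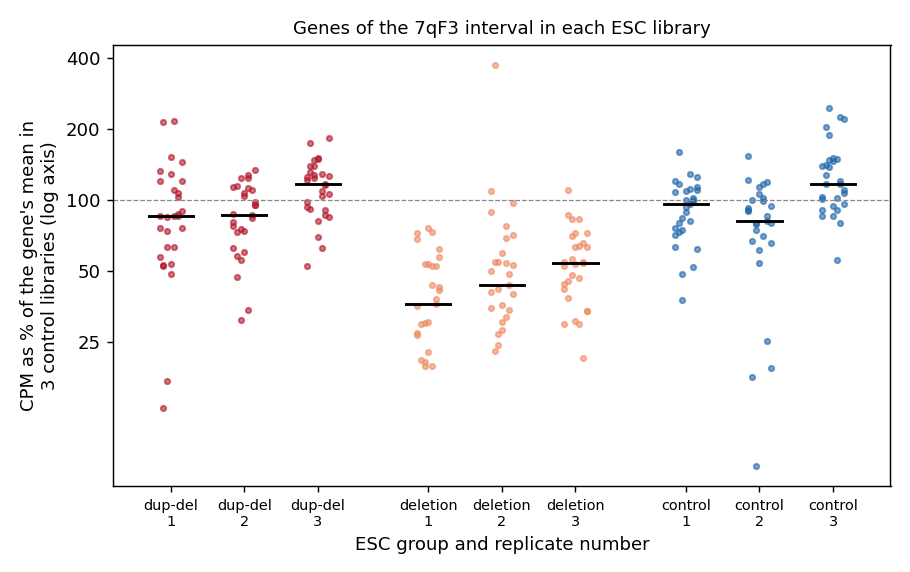
Level of each tested 7qF3 interval gene as a percentage of its mean in 3 control libraries (log axis; values of 0, at most 3 in a library, have no point), by ESC library, with a bar at the library's median. Duplication-deletion medians run from 85.3% to 117% and overlap those of control, while the 3 deletion medians are at or below 53.7%.

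No marker of the ESC state or of the other cell types listed was called by edgeR, with or without the block. Genes of naive pluripotency summed to 2679 to 3513 CPM in duplication-deletion libraries and 2635 to 3186 CPM in control libraries, and 0 of 24 were called. Within them Stat3, the transcription factor that LIF activates, had 51.9, 43.4 and 53.3 CPM in duplication-deletion cells and 66.9, 60.1 and 58.3 CPM in control cells, without overlap (blocked -0.32, adjusted p = 0.993). Dppa3, a maternal factor that protects imprints in the zygote, had 13.6, 22.5 and 20.2 CPM in duplication-deletion cells against 33.6, 45.4 and 18.8 CPM in control cells (-0.77, edgeR adjusted p = 0.993). Deletion ESCs had similar Dppa3 levels, 13.2, 28.1 and 18.3 CPM (deletion over control, blocked -0.74). Xist, the noncoding RNA of X inactivation, had 0.56, and 0.94 for deletion over control. Primitive endoderm markers summed to 356 to 995 CPM in duplication-deletion libraries and 321 to 1125 CPM in control libraries, and replicate 3 was the highest in both genotypes. Trophoblast markers summed to 1167, 544 and 967 CPM in duplication-deletion replicates 1 to 3, against 872, 476 and 550.4 CPM in control replicates, higher at each number. Peg10 made up most of each sum, with 1097, 435 and 703 CPM in duplication-deletion and 739, 411 and 421 CPM in control replicates. The sums therefore say little about the other markers. The blocked median of 11 tested trophoblast markers was 0.34, with 8 above 0 (50.2% of all genes). Peg10 alone was higher at an unadjusted p below 0.05 in edgeR. Tcfap2c, a transcription factor of trophoblast, had 11.2, 11.6 and 11.6 CPM in duplication-deletion cells and 15.6, 13.9 and 12.6 CPM in control cells, without overlap (-0.29, edgeR adjusted p = 0.993). Fibroblast and feeder markers summed to 211 to 417 CPM in duplication-deletion libraries and 219 to 406 CPM in control libraries, and neural markers to 58.3 to 88.6 CPM in duplication-deletion libraries and 47.9 to 98.7 CPM in control libraries. Their part in the genes called above was not tested.

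None of the other lists held a call. Of all genes, 50.1% were above 0 without the block and 50.2% with it. Glycolysis and hypoxia genes were below 0 in 22 of 27 without the block and 21 of 27 with it, with a blocked median of -0.14. Among them Pgam1, a phosphoglycerate mutase, had a blocked -0.28. Clustered histone genes had 39 of 43 below 0 with the block and a median of -0.20, with Hist3h2a at -0.65. Autism-linked chromatin regulators had 19 of 20 above 0, with a blocked median of 0.13. Clustered protocadherins, adhesion molecules that give neurons surface identities and that the study's title names, were 22 tested of the Pcdhg cluster (median 0.26, 15 above 0), 1 of Pcdha and 0 of Pcdhb.

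Among genes of at least 5 CPM without overlap between libraries, the largest values above 0 outside the genes already given were mKIAA0737 (1.01), Ubtfl1, an early-embryo HMG-box gene (0.98), A730008H23Rik (0.92) and AK077587 (0.81). The largest below 0 were 2210009G21Rik (-1.01) and Haus5, a subunit of the spindle augmin complex (-0.91). These are log2 fold changes without the block, and none passed. For deletion over control the blocked values of those above 0 were 1.06, 0.44, 0.90 and 0.41, in the order named. Those below 0 had -0.02 and -0.25. Thus mKIAA0737 and A730008H23Rik were as high in deletion ESCs. A730008H23Rik shares its current gene, Hjurp, with another entry, and summed with it had -0.08. Haus5 was at 0 CPM in duplication-deletion replicate 1 and shares its gene with 2310022K01Rik; the sum had -0.48. Libraries did not overlap for 2.93% of all genes.

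The authors' deposited table called 5 genes for this comparison, all lower (0.0361% of 13846). Snurf had a log2 fold change of -2.54 and D7Ertd715e of -2.39 in the authors' deposited table. The others were 2310005E10Rik (-9.58), Cccap (-9.37) and mKIAA1401 (-8.34) in the authors' deposited table, and each was listed at 0 in all 3 duplication-deletion libraries. In control replicates 1 to 3, 2310005E10Rik had 1.12, 7.33 and 1.56 CPM. Each is a second entry of a gene that has another, namely Akr1b10, Sdccag8 and Tsr1 in that order. Summed over entries, Akr1b10 had 5.09, 10.9 and 7.31 CPM in duplication-deletion cells and 5.92, 7.36 and 8.57 CPM in control cells. The summed blocked values were 0.06 for Akr1b10, 0.17 for Sdccag8 and -0.03 for Tsr1, so these lower levels were of entries, not of genes. With all entries summed by gene, 6 genes passed with the block: Cdkn1c, Kcnq1ot1, Phlda2, Snurf, Zscan4e and Zscan4f.

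Chromosome 11 stood apart from the other chromosomes by its median. The median log2 fold change of its 1265 tested genes was -0.17, with 77.0% below 0, while the medians of 19 other chromosomes ran from -0.02 to 0.07. Within replicate numbers, the chromosome 11 median, centred over chromosomes, was -0.29 in duplication-deletion replicate 1 and -0.11 in control replicate 1. It was -0.28 in duplication-deletion replicate 2 and -0.12 in control replicate 2, and 0.01 in duplication-deletion replicate 3 and 0.19 in control replicate 3. The differences were -0.19, -0.16 and -0.19, while single differences on other chromosomes ran from -0.11 to 0.17. All 13 windows of 10 Mb along chromosome 11 had medians below 0, from -0.23 to -0.07.

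Chromosome 11 is described because its values stood out in these libraries, so no test of it is given. It holds Aurkb, a mitotic kinase (13.9, 18.5 and 26.3 CPM in duplication-deletion cells, 24.9, 27.1 and 34.3 CPM in control cells; blocked -0.59, edgeR adjusted p = 0.715), Stat3 and Hist3h2a. The deletion ESCs had a mean difference from control of -0.06 on this chromosome. In NPCs and neurons the chromosome 11 median of duplication-deletion over control was 0.08 and 0.06.

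**Figure D5:**
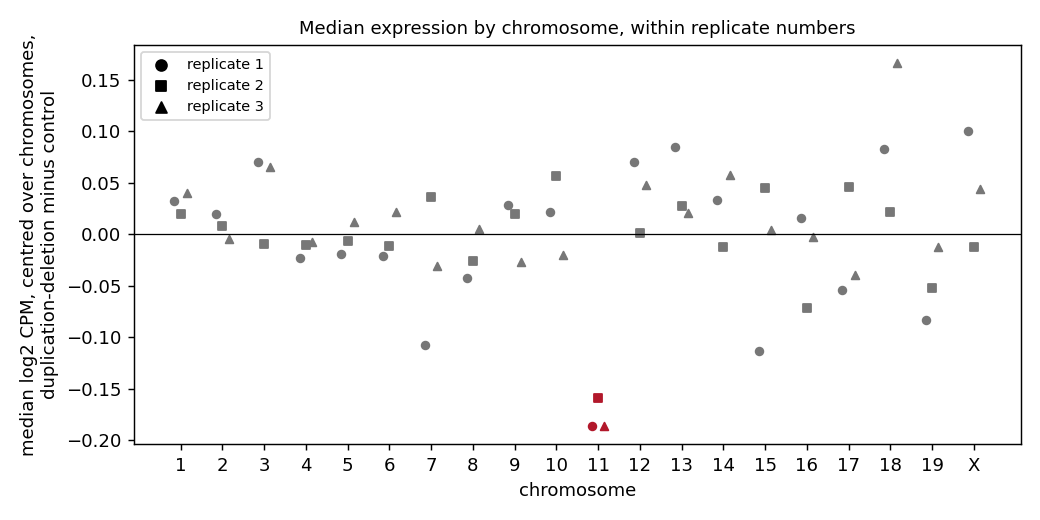
Difference between duplication-deletion and control ESCs in median log2 CPM of each chromosome, centred over chromosomes, for replicate numbers 1, 2 and 3 (symbols); chromosome 11 is red. Its 3 differences lie between -0.19 and -0.16, below all those of other chromosomes, which start at -0.11.

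Cells of the same genotype at later stages give values from libraries that the ESC comparison did not use: neural progenitor cells (NPCs) at day 5 (3 duplication-deletion, 5 control) and immature dopaminergic-lineage neurons at day 16 (2 and 4). Snurf had 17.3, 12.6 and 0.761 CPM in duplication-deletion NPCs against 60.4 to 85.0 CPM in control NPCs, and 24.5 and 13.7 CPM in duplication-deletion neurons against 118 to 304 CPM in control neurons. No duplication-deletion library reached the lowest control one at either stage. The share of all genes without overlap was counted only in ESCs, so separation in these small NPC and neuron groups is described without that background. The log2 fold changes were -2.83 in NPCs (edgeR adjusted p = 0.619) and -3.30 in neurons (adjusted p = 0.159), neither past the threshold. Gene values at these stages are from fits without the block, unlike the ESC calls. The labels do not say how many lines or clones stand behind a genotype, so separate libraries need not be separate lines. Values at these stages are therefore not an independent repeat of the ESC comparison. Whether a difference belongs to the genotype or to a line was not tested. D7Ertd715e had -2.49 in NPCs (adjusted p = 1) and was called in neurons, with 7.80 and 7.43 CPM in duplication-deletion neurons against 87.5 to 142 CPM in control neurons (-3.89, adjusted p = 0.00742). Snrpn was called in neurons too, with 3.01 and 3.63 CPM in duplication-deletion neurons against 29.4 to 58.1 CPM in control neurons (-3.78, adjusted p = 0.0101).

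More members of the Snrpn domain were expressed at these stages. Ndn had 42.7 and 29.1 CPM in duplication-deletion neurons against 193 to 363 CPM in control neurons (-2.88, edgeR adjusted p = 0.131). Mkrn3 had -2.75 in NPCs and -2.65 in neurons (edgeR adjusted p = 0.532 and 0.142), and Peg12 -2.99 and -4.46 (adjusted p = 0.619 and 0.469). In duplication-deletion NPC replicate 5 all of these were below 1 CPM, lower than in replicates 2 and 4.

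Of the Kcnq1ot1 domain, Kcnq1ot1 had 1275, 951 and 1070.4 CPM in duplication-deletion NPCs against 330.4 to 798 CPM in control NPCs, and 503 and 596 CPM in duplication-deletion neurons against 218 to 379.6 CPM in control neurons. Every duplication-deletion library was above every control one, again without a share over all genes to set it against (1.05 and 0.90, edgeR adjusted p = 0.891 and 0.673). Cdkn1c had 49.5, 35.4 and 55.4 CPM in duplication-deletion NPCs against 136 to 529 CPM in control NPCs (-2.76, adjusted p = 0.304), and -1.35 in neurons (adjusted p = 0.648). Phlda2 was near or below 1 CPM at both stages except for 2.09 CPM in 1 control NPC library. Plagl1 had -3.47 in NPCs and -2.15 in neurons (edgeR adjusted p = 0.392 and 0.543). Zscan4e and Zscan4f were listed at 0 CPM in all NPC and neuron libraries of both genotypes.

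Genes past the threshold numbered 2 in duplication-deletion NPCs (0.0119% of 16783; 447, or 2.66%, were under 0.05 before adjustment) and 7 in neurons (0.039% of 17931; 1295, or 7.22%, before adjustment). The 2 in NPCs were Zim1 of the Peg3 domain and Airn, the paternal noncoding RNA that silences Igf2r. Zim1 had 28.1, 24.5 and 17.4 CPM in duplication-deletion NPCs against 0.322 to 1.43 CPM in control NPCs (4.89, edgeR adjusted p = 0.00186), and 31.1 and 52.5 CPM in duplication-deletion neurons against 2.31 to 4.78 CPM in control neurons (3.46, adjusted p = 0.0155). In ESCs it had 1.07, 1.90 and 0.990 CPM in duplication-deletion cells and 0.965, 0.792 and 1.21 CPM in control cells. The ESC effect on Zim1 was smaller than the NPC effect by 4.49 (adjusted p = 0.00306), the 1 call of 19996 genes in that test (0.005%); ESC against neuron effects gave 0 calls. Airn had at most 0.0165 CPM in duplication-deletion NPCs and 0.784 to 4.71 CPM in control NPCs (adjusted p = 0.0482).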

How the data were processed

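Total RNA libraries were stranded and paired-end, per the labels' protocols. The authors deposited expected counts per gene and library, per the submitters' processing notes, which name STAR 2.6.0c, RSEM 1.3.0 and the build mm9; whether counting used the strand is not given in the sources used here. The authors' deposited table holds log2 fold changes, p-values and mm9 positions from DESeq2 1.22.2, per the same notes. Hi-C samples are not analysed here.

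The values were rounded to whole numbers. Of 29968 entries, 92 for spike-in controls were dropped. The 9 ESC libraries were fitted together with edgeR 4.0.16 in R 4.3.3 (robust quasi-likelihood, TMM, filterByExpr by group, two-sided, Benjamini-Hochberg over all 16470 genes, threshold 0.05); DESeq2 1.42.0 and limma 3.58.1 (voom) were alternatives. NPC and neuron libraries were fitted per stage, and stage differences in a joint fit of 28 libraries. Scripts were tested on simulated counts. In ESCs the correlation of deviations from group means was 0.224 to 0.692 for the 9 same-numbered pairs, over the 0.1 required. Pairs of unlike number ran from -0.491 to 0.240, so the ranges overlapped and some unlike pairs also passed 0.1. Control replicate 2 had 0.268 with duplication-deletion replicate 2 and 0.240 with duplication-deletion replicate 1. Still, 9 of 9 libraries correlated best with their own number. The pairing thus comes from the data, not the labels, which give only the numbers. Of 9 pairs of replicates of a genotype 0 were identical.

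Entries matched to current gene names numbered 22264. The comparison and the 31 gene lists were chosen with earlier results of these data known. Genes were named by rule: those past the threshold; fixed interval genes and the interval's extremes; domain members of at least 1 CPM; up to 4 per other list by p; the 6 largest changes each way among genes of at least 5 CPM without overlap; and the authors' calls. Alternatives covered scaling, filters, tools, summed entries and left-out libraries.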

Additional observations from a re-analysis of the deposited data

Results flagged for a closer look

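The effect of duplication-deletion on Zim1 differed between stages by the interaction test: the log2 effect in ESCs minus the effect in NPCs was -4.49 (edgeR adjusted p = 0.00306). In 3 of 3 duplication-deletion NPC libraries it was above every control NPC library, whereas the ESC libraries of both genotypes overlapped. The share of all genes so separated in NPCs was not counted.

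Among 32 groups of 4 or 5 libraries checked over 16 genes, 2 held a library far from the others, where chance gives about 1 in 20. In control neurons the lowest Peg12 library lay apart, at 1.79 CPM against 3.42 to 3.75 CPM in the other 3, with a gap of 0.831 of the range. In control NPCs the highest Phlda2 library lay apart, at 2.09 CPM against at most 0.755 CPM, with a gap of 0.722 of the range.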

How the results depend on the processing

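Without the block, duplication-deletion against control ESCs called 0 genes with RLE size factors, library size only, abundant noncoding RNA left out, no filter, a stricter filter, limma-voom, the 6 libraries of both genotypes, entries summed, or any 1 library left out (0 to 0); DESeq2 called 4, and leaving replicate 3 of all genotypes out called 2, Snurf and D7Ertd715e. With the replicate block edgeR called 7, also with RLE size factors, abundant noncoding RNA left out, no filter (6 of the 7) or a stricter filter. Block calls numbered 22 with DESeq2, 10 with limma-voom, 2 with library size only, 0 with 6 libraries, 3 without replicate 3 of all genotypes and 6 with entries summed, a setting chosen after seeing the data. Leaving out duplication-deletion replicates 1, 2 and 3 gave 5, 4 and 4 block calls, of which 5, 4 and 3 were among the 7. Leaving out control replicates 1, 2 and 3 gave 14, 7 and 16, of which 7, 5 and 6 were among the 7. The rest included Gm5662 of chromosome 12 without control replicate 1 and 2310005E10Rik of chromosome 6 without control replicate 3. Across 34 fits each of the 7 genes kept its direction. Duplication-deletion against deletion ESCs had 0 calls, 13 with the block and 18 with DESeq2. NPCs had 2 calls, 2 with the block and 49 with DESeq2; neurons had 7, 40 with the block and 156 with DESeq2. Single NPC or neuron libraries were not left out. The cause of these differences was not tested.

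Signs of uncalled values near 0 turned. Over single left-out libraries without the block, log2 fold changes ran from -0.55 to 0.12 for Aldoa, -0.89 to 0.20 for Mapk3, -0.18 to 0.064 for Ppp4c, -0.62 to 0.24 for Kctd13, -0.28 to 0.12 for Cd81, -0.12 to 0.12 for Nap1l4, -0.94 to 0.072 for Ndn, -0.51 to 0.43 for Mkrn3, -0.053 to 0.56 for Ube3a and -0.086 to 1.16 for Xist. With the block, Ppp4c turned to 0.059, 0.11 and 0.058 without duplication-deletion replicate 1, control replicate 1 and control replicate 3. Kctd13 turned to 0.17, 0.014 and 0.10 without duplication-deletion replicate 2, control replicate 2 and control replicate 3, and to 0.092 without replicate 3 of all genotypes. Mkrn3 turned to -0.27, -0.036 and -0.018 without duplication-deletion replicate 2, control replicate 2 and control replicate 3, to -0.029 with library size only, and to -0.0011 with limma-voom and no block. Nap1l4 turned to 0.015 and 0.032 without control replicates 2 and 3. Mapk3 turned to 0.088 without control replicate 1. Without duplication-deletion replicate 2, Peg12 turned to 0.13 and Zim1 to -0.0017. With entries summed, 2310005E10Rik turned to 0.092 (0.060 with the block), Cccap to 0.17 (0.17 with the block) and A730008H23Rik to -0.078 (-0.074 with the block), by the counts of their other entries. List medians moved by less than the spread of library medians in 855 of 897 cases.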
